A study of Mus musculus with 30 samples.

Results

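CT-26 is a carcinoma cell line of the mouse colon that forms tumors under the skin of BALB/c mice, and here its tumors of about 800 mm3 were compared with its tumors of about 100 mm3. The 8 tumors, 4 of each size, were chosen by their size labels and are 8 of the 30 poly-A RNA-seq libraries of the study. All hosts were female BALB/c mice with an implant in the right flank, and the labels give no age. The volumes at harvest were 103.33, 106.18, 136.03 and 145.86 mm3 for the 100 mm3 tumors 1 to 4, and 938.57, 810.36, 822.82 and 853.76 mm3 for the 800 mm3 tumors 1 to 4. The tumor numbers are only names, given in deposit order. The treatment text shared by the labels describes dosing with antibodies, but no label names an antibody for any of these tumors, and they were taken as untreated. The other libraries used for context are 3 CT-26 cultures, 4 CT-26 tumors of 400 mm3, and 8 tumors of 100 and 800 mm3 of Colon 26, another colon carcinoma line of the same mouse strain. The labels do not say that each tumor came from its own mouse, so the p-values measure the spread between these tumors. The question was which genes differed in level between small and large tumors of the same model.

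A growing implant is a mixture of tumor cells, vessels, fibroblasts and immune cells, and a small piece can carry muscle or skin from the flank. RNA from the whole piece is read together, so that fewer cells of a type and less RNA per cell cannot be told apart. Interferons made by lymphocytes and myeloid cells bind receptors on most cells of a tumor. The genes that these receptors switch on, called interferon-stimulated genes, encode antiviral enzymes, chemokines and the machinery of antigen display. Glucocorticoids, the steroid hormones of the adrenal cortex, act through a nuclear receptor that binds DNA, and their level follows the hour of the day and stress. Neutrophils are short-lived myeloid cells that are drawn into tissue by chemokines such as Cxcl1.

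The regulatory DNA just before some of these genes holds known binding letters. The 5 windows shown were picked because they hold the letters and belong to genes described tumor by tumor below. Not every such gene is shown, and Gbp2, whose window also holds the interferon letters, is left out. Each window shown is the 250 bases before the start of the gene in RefSeq (build GRCm38.p6), written in the direction of the gene. In the first 4 windows the capitals mark the interferon response letters, GAAA, then NN (any bases), then GAAA, on either strand, with overlapping matches joined. In the last window they mark the glucocorticoid receptor letters, GNACA, then NNN, then TGTNC, on either strand.
Isg15, chr4:156200819-156201068, minus strand: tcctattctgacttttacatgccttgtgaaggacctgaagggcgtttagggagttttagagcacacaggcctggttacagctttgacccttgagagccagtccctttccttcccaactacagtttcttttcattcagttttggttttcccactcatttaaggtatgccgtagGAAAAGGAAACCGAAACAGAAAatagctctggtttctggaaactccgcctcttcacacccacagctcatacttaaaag
Rsad2, chr12:26456453-26456702, minus strand: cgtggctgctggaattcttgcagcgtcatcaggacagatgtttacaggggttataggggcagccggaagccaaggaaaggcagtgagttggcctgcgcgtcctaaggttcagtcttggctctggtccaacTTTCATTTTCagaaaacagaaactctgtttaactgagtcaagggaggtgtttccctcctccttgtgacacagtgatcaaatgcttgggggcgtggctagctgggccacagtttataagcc
Cxcl10, chr5:92348890-92349139, minus strand: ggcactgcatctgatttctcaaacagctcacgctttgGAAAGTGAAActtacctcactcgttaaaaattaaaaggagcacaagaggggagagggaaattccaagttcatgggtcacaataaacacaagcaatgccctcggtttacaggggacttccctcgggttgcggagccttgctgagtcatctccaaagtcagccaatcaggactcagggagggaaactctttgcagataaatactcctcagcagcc
Oas1a, chr5:120907526-120907775, minus strand: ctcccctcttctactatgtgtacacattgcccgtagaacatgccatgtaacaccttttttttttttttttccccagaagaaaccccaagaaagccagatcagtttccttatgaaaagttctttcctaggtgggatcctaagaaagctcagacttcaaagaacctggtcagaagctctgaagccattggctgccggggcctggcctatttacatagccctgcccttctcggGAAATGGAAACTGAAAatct
Sgk1, chr10:21993640-21993889, plus strand, 1 of its 6 windows: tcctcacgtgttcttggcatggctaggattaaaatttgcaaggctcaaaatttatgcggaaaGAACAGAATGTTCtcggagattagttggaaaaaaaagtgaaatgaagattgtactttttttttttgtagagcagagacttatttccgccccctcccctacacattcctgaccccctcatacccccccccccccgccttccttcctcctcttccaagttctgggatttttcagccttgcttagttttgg

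The interferon letters lay in 978 of 32851 windows of all genes (2.98%) and in at least 1 window of 936 of 27025 genes (3.46%). Of the 23 interferon-stimulated genes of the list used here that were matched to a window, 11 (47.8%) held them, against 2 of 15 matched genes of MHC class I display, 3 of 19 chemokine genes and 0 of 16 neutrophil genes. The glucocorticoid letters lay in 127 windows (0.387%), or 119 genes (0.44%), among them Sgk1 and Mt1 of 11 matched glucocorticoid-responsive genes. A match describes the letters and does not show that a factor was bound.

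Counts on genes summed to between 24844108 and 30584263 per 100 mm3 tumor and between 26291235 and 35681914 per 800 mm3 tumor. Mitochondrial genes took 1.18 to 1.44% of the small and 1.26 to 1.58% of the large tumors. The correlation of log2(CPM + 0.5) between libraries was 0.979 to 0.991 within the 100 mm3 tumors, 0.984 to 0.992 within the 800 mm3 tumors and 0.972 to 0.991 between the sizes, where CPM is the count of a gene scaled to the depth of its library after TMM normalization. The defining genes of colon epithelium were near 0 in all 8 tumors, with Epcam at 0 to 0.238 and 0.172 to 0.305 CPM, Vil1 at 0 to 0.153 and 0.0332 to 0.0611 CPM, and Cdx2 at 0.0325 to 0.344 and 0.0573 to 0.365 CPM, in small and large tumors. Krt20, a keratin of differentiated gut epithelium, was present at 164, 128, 129 and 133 CPM in the small and 90.2, 170.1, 185 and 236 CPM in the large tumors. In culture the CT-26 cells held Krt20 at 25.4 CPM on average. Of 6 tested epithelial genes 1, Cdh1, was higher at an unadjusted p under 0.05, and Krt18 gave a log2 fold change of 0.18 (SE 0.27).

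No gene passed the test between 800 and 100 mm3. Of 15298 genes tested by edgeR's quasi-likelihood test, 0 (0%) reached an adjusted p of at most 0.1 with a log2 fold change of at least 1, and the smallest adjusted p was 0.408. At an unadjusted p under 0.05 there were 1610 genes (10.5%), of which 854 (5.58%) were higher and 756 (4.94%) lower in the large tumors. The values of the 4 large tumors lay entirely above those of the 4 small tumors for 414 genes (2.71%) and entirely below for 354 (2.31%). The median log2 fold change was -0.00, the median standard error 0.13 and the median half-width of the 95% interval 0.28. DESeq2, the other tool run, called 39 of 14760 genes (0.264%), 22 higher (0.149%) and 17 lower (0.115%), and 26 of the 39 did not overlap between the sizes. All tumors in a single fit of 24 libraries gave 20 calls, 16 of which DESeq2 also made. The genes named below are therefore described by their values in each tumor, and a gene is said to differ only with the tool named.

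Among the gene lists, the interferon-stimulated genes had the largest share of lower members and the neutrophil genes the largest share of higher members among lists with at least 5 members tested. Some neutrophil genes had enough counts to be tested only through the large tumors, so that share does not describe the whole list. It was 3 of 8 where 10 counts were required in every library. No member of any of the 35 lists drawn up for the series was called by edgeR. Over all genes 5.58% were higher and 4.94% lower at an unadjusted p under 0.05. This is the background for counts of list members in CT-26 below that come from the fit of all 8 tumors. Fits with tumors left out have other backgrounds. In either direction these ran from 433 of 15421 genes, without the 3 tumors highest in muscle, to 2284 of 15575, without the 800 mm3 tumor 1. The lists of hypoxia, the cell cycle, cholesterol synthesis and red blood cells lay near the background in both directions.

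**Figure D1:**
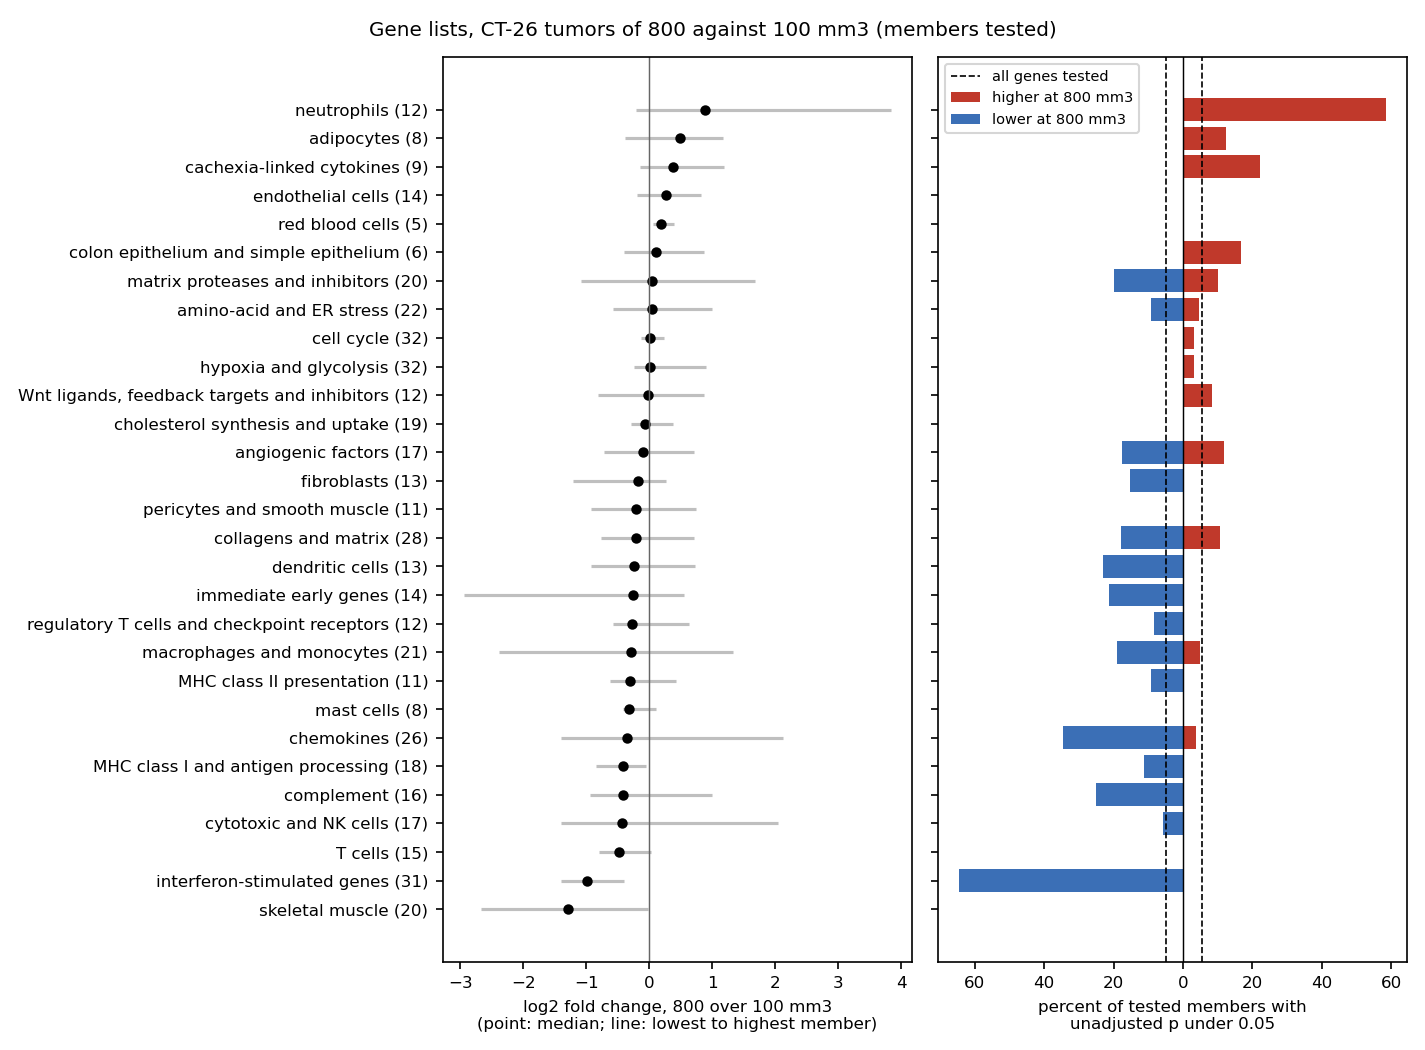
Left, the median (point) and the lowest to highest (line) log2 fold change of the tested members of each list with at least 5 members tested, 800 over 100 mm3, without the lists added after values were seen. Right, the percent of tested members with an unadjusted p under 0.05 that were higher (red) or lower (blue), beside the dashed background over all genes of 5.58% and 4.94%. Interferon-stimulated genes reach 20 of 31 lower and neutrophil genes 7 of 12 higher. Some of these neutrophil genes had enough counts to be tested only through the large tumors.

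The genes with the smallest p-values among those lower in large tumors included a group that glucocorticoids are known to raise, and this group was put together after their values were seen. Tsc22d3, which encodes the glucocorticoid-induced leucine zipper protein, held 179.6, 172, 176 and 301 CPM in the 100 mm3 tumors 1 to 4 and 80.1, 85.7, 98.04 and 72.3 CPM in the 800 mm3 tumors. Every large tumor lay under every small tumor. The log2 fold change was -1.30 (SE 0.19, 95% interval -1.72 to -0.88), with an adjusted p of 0.408 by edgeR and 6.48e-08 by DESeq2. Per1, a clock gene that glucocorticoids also induce, held 106, 119, 117 and 200.4 CPM in the small and 53.0, 43.0, 68.6 and 45.9 CPM in the large tumors. Its log2 fold change was -1.36 (SE 0.22), with an adjusted p of 0.417 by edgeR and 1.59e-06 by DESeq2, and again the sizes did not overlap. Sgk1, a kinase of salt transport and cell survival whose window is printed above, held 165, 128, 103 and 301 CPM and 64.1, 68.5, 81.8 and 63.4 CPM. It did not overlap either, at a log2 fold change of -1.33 (SE 0.29) and a DESeq2 adjusted p of 0.00115.

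Of the 12 members of this list that were tested, 7 were lower and 0 higher at an unadjusted p under 0.05, where 4.94% of all genes were lower. Since the list was chosen for lower values, this count and the median log2 fold change of -0.48 only describe it. The other 4 lower members were Dusp1, a phosphatase that switches off MAP kinases, Fkbp5, a chaperone partner of the glucocorticoid receptor, Ddit4, an inhibitor of mTOR, and the transcription factor Cebpd. The metallothioneins Mt1 and Mt2, which bind metals and respond to the same hormones, gave log2 fold changes of -0.05 (SE 0.20) and -0.17 (SE 0.21). Errfi1, an inhibitor of the EGF receptor, gave -0.30 (SE 0.18, edgeR adjusted p = 0.559). Without the 800 mm3 tumor 2 the count of lower members was 4 of 12, and without the 3 tumors highest in muscle genes 4 of 11. The 100 mm3 tumor 4 was the highest of the small tumors for Tsc22d3, Per1 and Sgk1, and it was also the highest in skeletal muscle genes. Without it the log2 fold changes were -1.08, -1.12 and -0.94, and that of Tsc22d3 passed the test of edgeR at an adjusted p of 0.0532. Without the 3 tumors highest in muscle (the 100 mm3 tumors 2 and 4 and the 800 mm3 tumor 3) they were -1.17, -1.24 and -1.04.

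A pair of further genes without overlap was singled out after their values were seen, and the 100 mm3 tumor 4 was the highest in both. Ccn2, a matrix-associated growth factor and a target of the Yap coactivators, held 124, 91.3, 70.2 and 263 CPM in the small tumors and 35.6, 29.8, 27.7 and 29.2 CPM in the large tumors. Its log2 fold change was -2.17 (SE 0.37), with an adjusted p of 0.417 by edgeR and 0.000746 by DESeq2. Without the 100 mm3 tumor 4 it was -1.65, and edgeR called it at an adjusted p of 0.0855. Tent5b held 11.0, 10.7, 6.27 and 21.8 CPM and 3.65, 4.30, 2.92 and 3.45 CPM, at -1.79 (SE 0.34) and a DESeq2 adjusted p of 6.72e-05. In the CT-26 cultures the means were 46.6 CPM for Tsc22d3, 35.4 for Per1, 41.0 for Sgk1, 30.9 for Ccn2 and 1.54 for Tent5b. The large tumors were thus nearer to the culture than the small tumors for each of these 5 genes.

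The 400 mm3 tumors, which share the 100 mm3 tumors as their reference, held 53.8, 47.8, 90.1 and 95.3 CPM of Tsc22d3, 50.3, 48.4, 82.2 and 70.6 CPM of Per1 and 25.7, 36.9, 34.1 and 35.5 CPM of Ccn2. All of these lay below the 4 small tumors. In the same comparison 4 of 12 tested glucocorticoid-responsive genes were lower and 0 higher at an unadjusted p under 0.05. The background was 11.3% lower and 10.9% higher. The sum of the list overlapped, at 1777, 1752, 2294 and 1182 CPM at 400 mm3 against 2263, 1768, 1554 and 2613 CPM at 100 mm3. The Colon 26 tumors share no library with the CT-26 tumors. There Tsc22d3 fell from 521, 347, 330.1 and 215 CPM at 100 mm3 to 146, 85.2, 119 and 141 CPM at 800 mm3, a log2 fold change of -1.54 (SE 0.25, edgeR adjusted p = 0.0183). Per1 fell from 204, 179.5, 168 and 149 CPM to 55.2, 62.4, 64.2 and 67.9 CPM (edgeR adjusted p = 0.000205). On the log2 scale Sgk1 fell by 1.63 (edgeR adjusted p = 0.00665), Tent5b by 2.004 (edgeR adjusted p = 0.00981) and Ccn2 by 1.14 (edgeR adjusted p = 0.0154). Of 12 tested glucocorticoid-responsive genes, 7 were lower and 2 higher in Colon 26 at an unadjusted p under 0.05, against 10.8% and 9.87% of all genes. Summed muscle genes were at 223 to 2174 CPM in the small and 6.17 to 6.86 CPM in the large Colon 26 tumors. Size and muscle thus went together there, and the part of muscle was not tested. The difference of the change between the models was 0.24 (95% interval -0.48 to 0.96) for Tsc22d3, 0.14 (-0.40 to 0.68) for Per1 and -1.02 (-1.94 to -0.10) for Ccn2, CT-26 minus Colon 26. None of these 3 differences passed the test, with adjusted p-values of 0.818, 0.87 and 0.347 from edgeR.

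**Figure D2:**
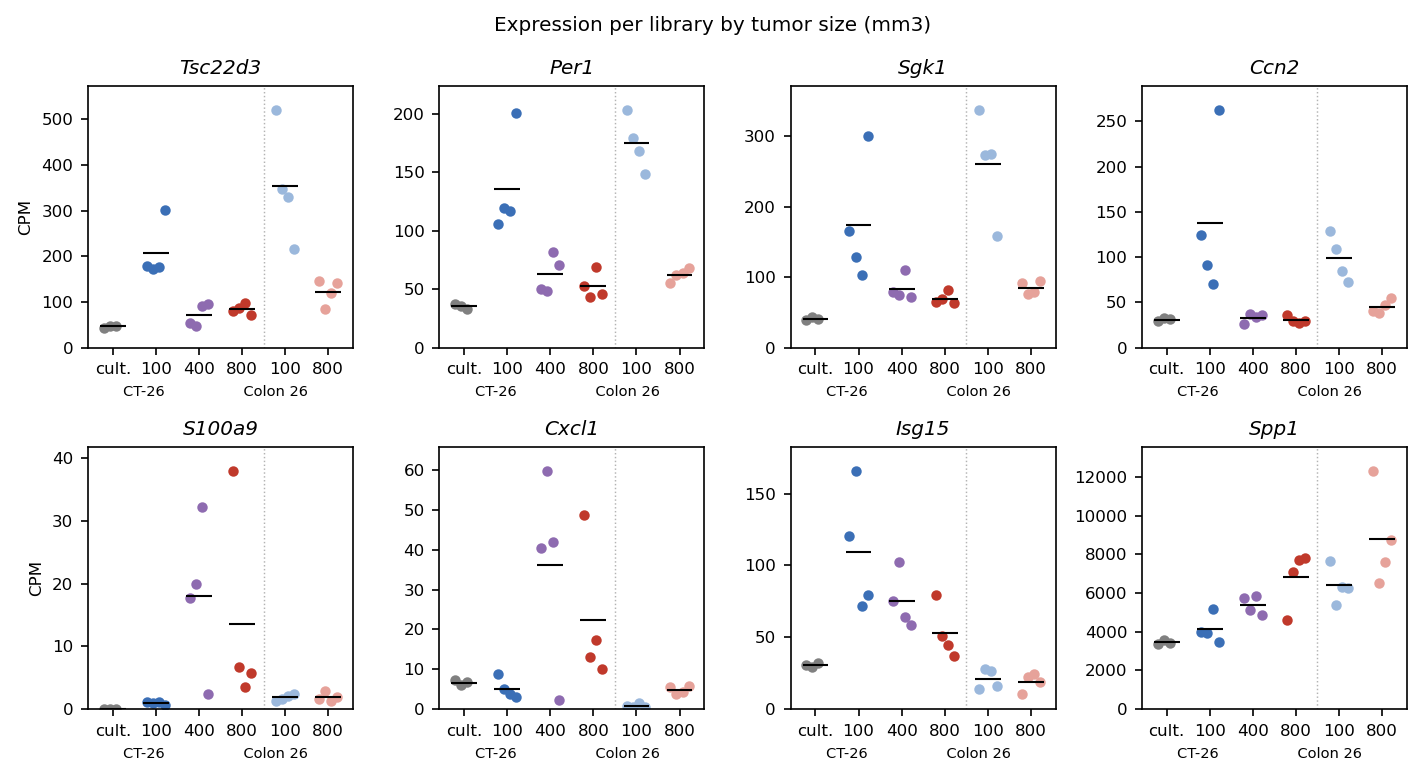
CPM (linear axis from 0) of 8 genes in each CT-26 culture and tumor and, right of the dotted line, each Colon 26 tumor of 100 and 800 mm3. Points are libraries and bars are means. Tsc22d3, Per1, Sgk1 and Ccn2 are higher in all 4 small CT-26 tumors than in the large ones, S100a9 and Cxcl1 are lower in all 4, and Isg15 and Spp1 overlap.

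Of 13 tested genes of the circadian clock, another list added after values were seen, 1 was higher (Arntl) and 2 were lower (Per1 and Hlf) at an unadjusted p under 0.05. Arntl, the partner of Clock in the activating arm, held 38.7, 38.2, 29.3 and 30.3 CPM in the small and 45.0, 49.1, 43.7 and 39.1 CPM in the large tumors without overlap (log2 0.37, SE 0.11). The Clock gene itself gave 0.12 (SE 0.08), and Dbp, an output gene, gave -0.39 (SE 0.41) in CT-26. In Colon 26, 8 of 14 tested clock genes were lower and 3 higher at an unadjusted p under 0.05, against a background of 10.8% lower and 9.87% higher. There Dbp fell by 1.83 on the log2 scale (edgeR adjusted p = 0.0176). The hour of harvest is not given.

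All 31 interferon-stimulated genes had a lower mean in the large tumors by the fit, and 20 were lower at an unadjusted p under 0.05, against 4.94% of all genes. None was called. Their median log2 fold change was -0.99 against -0.00 over all genes, and the values ran from -1.40 to -0.40. The sum of the 31 genes was 4188, 7515, 2966 and 2471 CPM in the 100 mm3 tumors 1 to 4 and 3188, 2537, 1753 and 1254 CPM in the 800 mm3 tumors. The sizes overlapped, with the 100 mm3 tumor 2 far above the rest and the 100 mm3 tumor 4 under the 800 mm3 tumors 1 and 2.

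Cxcl10, a chemokine for T cells, was the single member without overlap, at 76.2, 131, 57.5 and 48.1 CPM against 43.0, 36.3, 24.02 and 15.4 CPM (log2 -1.40, SE 0.37, edgeR adjusted p = 0.418). Isg15, a ubiquitin-like modifier, held 121, 166, 71.9 and 79.6 CPM and 79.3, 50.6, 44.3 and 37.0 CPM, where the 800 mm3 tumor 1 lay within the range of the small tumors. Its log2 fold change was -1.05 (SE 0.30). Rsad2, an antiviral radical enzyme, held 35.3, 53.3, 22.2 and 38.7 CPM and 34.7, 14.6, 14.3 and 11.9 CPM, at -0.99 (SE 0.36). Oas1a, which makes the activator of an antiviral nuclease, held 105, 134, 60.9 and 73.3 CPM and 91.7, 48.6, 35.2 and 26.3 CPM, at -0.89 (SE 0.38). In each of these 3 genes the 800 mm3 tumor 1 was the highest large tumor and the tumor 4 the lowest. Ifit3b, a relative of Ifit3 that is not on the list and shares sequence with it, did not overlap and was called by DESeq2 (log2 -1.26, SE 0.36, DESeq2 adjusted p = 0.0279), with its count uncertain for that reason.

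Other members with a high mean CPM overlapped between the sizes. Gbp2, a guanylate-binding protein induced by interferon gamma, held 606, 1212, 392.2 and 199 CPM and 336, 413, 254 and 150.3 CPM (log2 -1.06, SE 0.50). Cxcl9, a chemokine induced by interferon gamma, held 107, 290.3, 131 and 66.9 CPM and 101, 103, 72.6 and 45.9 CPM (log2 -0.89, SE 0.42). For both genes the 100 mm3 tumor 4 lay in the range of the large tumors and the tumor 2 held more than any other tumor. Ifng, the gene of interferon gamma, stood at 1.86, 4.55, 1.18 and 0.613 CPM and 0.671, 1.26, 0.664 and 0.489 CPM, with a log2 fold change of -1.40 (SE 0.58, edgeR adjusted p = 0.452).

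The count of lower interferon-stimulated genes depended on single tumors. It was 8 without the 100 mm3 tumor 2 and 30 without the 100 mm3 tumor 4. Over all genes these fits gave 1684 of 15442 and 1201 of 15553 at an unadjusted p under 0.05, in either direction. The interferon count was 9, 12 and 13 without the 800 mm3 tumors 3, 2 and 4. All genes gave 924 of 15479, 1221 of 15546 and 1042 of 15531 in those fits, against 1610 of 15298 with all 8 tumors. Without the 3 tumors highest in muscle genes, among them the 100 mm3 tumor 2, the interferon count was 3 of 31. All genes gave 433 of 15421 there. The 400 mm3 tumors held a sum of 2921, 5076, 2647 and 2914 CPM, and the cultures 503 to 514 CPM. In Colon 26 the sum was 437, 1465, 1395 and 677 CPM at 100 mm3 and 554, 940.4, 1220.3 and 955 CPM at 800 mm3, with a median log2 fold change of -0.11 and 0 of 31 at an unadjusted p under 0.05. The change differed between the models at an unadjusted p under 0.05 for 4 of 31 members, against 5.75% of all genes, and for 0 members after adjustment over all genes by edgeR.

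**Figure D3:**
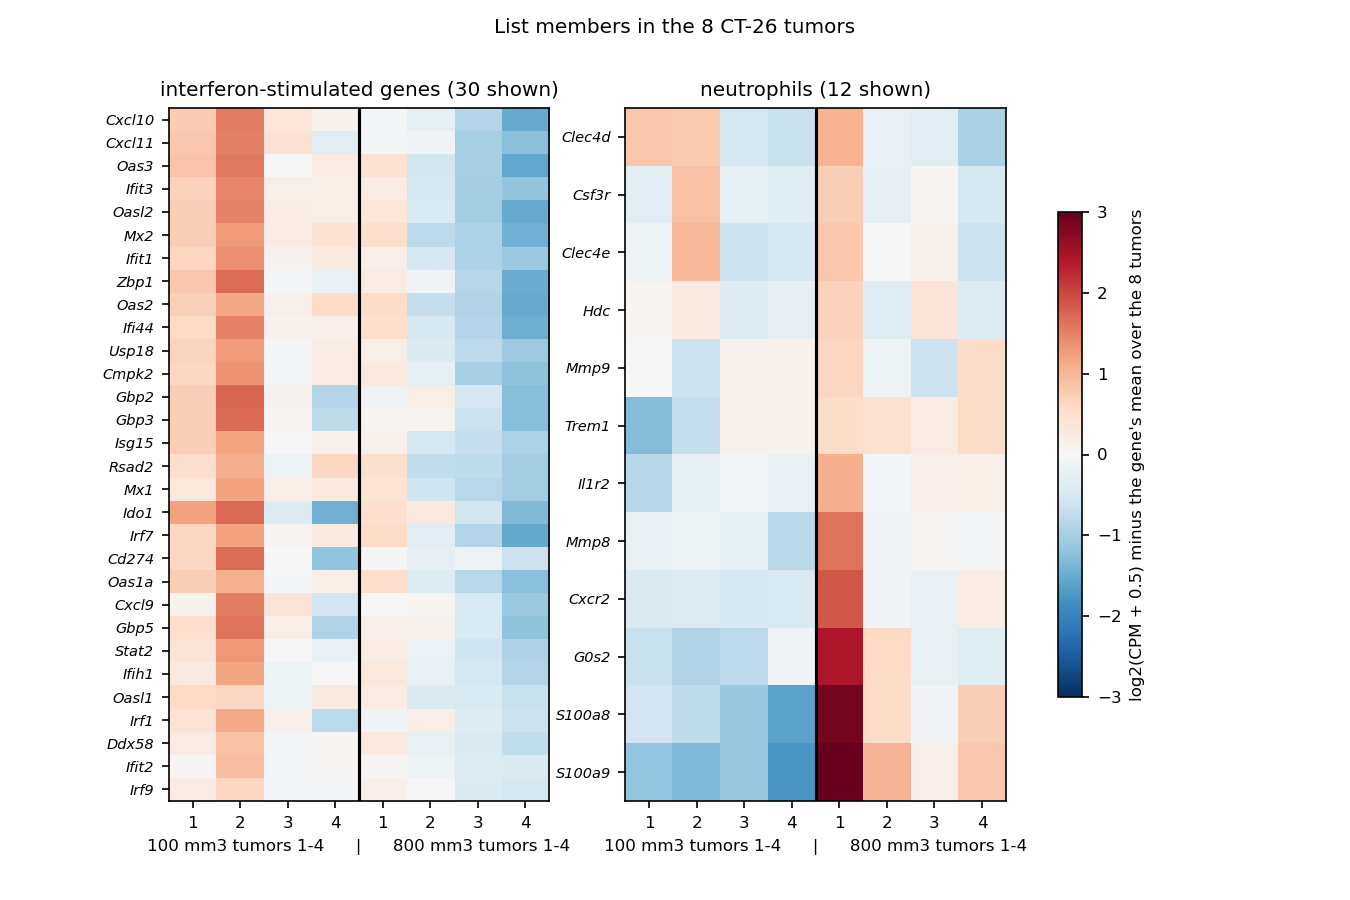
Log2(CPM + 0.5) of 30 interferon-stimulated genes and 12 neutrophil genes in the 8 CT-26 tumors, minus the gene's mean over the 8 tumors (red higher, blue lower, scale -3 to 3). Among interferon-stimulated genes the 100 mm3 tumor 2 is the reddest column and the 800 mm3 tumor 4 the bluest. Among neutrophil genes the 800 mm3 tumor 1 stands out.

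Of 18 tested genes of MHC class I and its peptide supply, 0 were higher and 2 lower at an unadjusted p under 0.05 (Psmb10 and Tapbp), and all 18 log2 fold changes were negative, with a median of -0.41. The count of lower members was 9 without the 100 mm3 tumor 4, 5 without the 100 mm3 tumor 3, 4 without the 800 mm3 tumor 1 and 0 without any of the 100 mm3 tumors 1 and 2 and the 800 mm3 tumors 3 and 4. B2m, the light chain of every class I molecule, gave -0.12 (95% interval -0.62 to 0.38), and the heavy chain H2-D1 gave -0.05 (-0.52 to 0.42). Among 11 genes of MHC class II display, Ctss, the protease that trims the invariant chain, was lower at an unadjusted p under 0.05 (log2 -0.61, SE 0.26). Cd74, the invariant chain itself, gave -0.27 (SE 0.43), with 289.8, 1007, 433 and 222 CPM in the small and 313, 536, 464 and 305 CPM in the large tumors. Once more the 100 mm3 tumor 2 was the highest.

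Of 26 tested chemokine genes, 9 were lower and 1 higher at an unadjusted p under 0.05, against 4.94% and 5.58% of all genes. Ccl5, a chemokine of T cells and NK cells, held 15.0, 26.6, 9.02 and 10.8 CPM in the small and 7.75, 6.51, 6.38 and 3.605 CPM in the large tumors without overlap (log2 -1.34, SE 0.35, DESeq2 adjusted p = 0.0169). Ccl22, made by mature dendritic cells and macrophages, did not overlap either, at 5.62, 3.38, 3.90 and 6.20 CPM against 2.16, 2.15, 3.06 and 2.72 CPM. Cxcl9, Cxcl10 and Cxcl11 belong to the interferon-stimulated list as well. Ccl2, which draws monocytes, gave -0.34 (SE 0.35, edgeR adjusted p = 0.74). The count of lower chemokines was 4 in the fit of 12 CT-26 tumors, 3 in the fit of 24 tumors and 4 without the 3 tumors highest in muscle.

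The single higher chemokine was Cxcl1, a ligand of the neutrophil receptor Cxcr2. It held 8.71, 5.10, 3.67 and 2.96 CPM in the 100 mm3 tumors and 48.8, 13.0, 17.3 and 10.1 CPM in the 800 mm3 tumors, so that every large tumor lay above every small tumor. The log2 fold change was 2.13 (SE 0.53), with an adjusted p of 0.418 by edgeR and 0.0632 by DESeq2. Without the 800 mm3 tumor 1 the log2 fold change was 1.39. At 400 mm3, against the same small tumors, it held 40.4, 59.7, 42.0 and 2.36 CPM. In Colon 26 it rose from 0.714, 0.599, 1.48 and 0.536 CPM to 5.53, 3.74, 4.20 and 5.91 CPM (log2 2.53, SE 0.31, edgeR adjusted p = 0.00738).

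Some neutrophil genes were higher in the large tumors. Of 17 members 12 had enough counts to be tested, and 7 of these were higher and 0 lower at an unadjusted p under 0.05, against 5.58% of all genes. A member can pass the filter through its counts in the large tumors alone, as Cxcr2 and S100a8 did, so the count of 7 does not describe the list as a whole. Where 10 counts were required in every library, 3 of 8 tested members were higher, and limma on log2(FPKM + 1) gave 3 of 10. Their median log2 fold change was 0.89. S100a9 and S100a8 encode the 2 chains of calprotectin, a protein that neutrophils carry in bulk. S100a9 held 1.11, 0.942, 1.15 and 0.579 CPM in the small tumors and 37.9, 6.79, 3.52 and 5.84 CPM in the large tumors, without overlap. The log2 fold change was 3.84 (SE 0.78), with an adjusted p of 0.417 by edgeR and 0.00222 by DESeq2. S100a8 held 0.743, 0.585, 0.344 and 0.102 CPM and 12.9, 2.21, 1.23 and 2.60 CPM, at 3.41 (SE 0.83) and a DESeq2 adjusted p of 0.0298. The 800 mm3 tumor 1 carried the most of both, and without it the log2 fold changes were 2.51 for S100a9 and 2.18 for S100a8.

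Cxcr2, the receptor for Cxcl1 on neutrophils, held 0.248, 0.260, 0.229 and 0.238 CPM in the small and 3.20, 0.459, 0.365 and 0.672 CPM in the large tumors. The others were Mmp8, neutrophil collagenase, Il1r2, a decoy receptor of interleukin-1, Trem1, an activating receptor of myeloid cells, and G0s2, an inhibitor of fat breakdown that neutrophils express. Csf3r, the receptor of the neutrophil growth factor, held 8.51, 20.1, 8.71 and 8.21 CPM and 18.0, 8.88, 11.1 and 7.42 CPM (log2 -0.01, SE 0.36), and Mmp9 gave 0.29 (SE 0.29). The granule genes Camp and Ngp and the surface marker gene Ly6g were at or near 0, with no tumor above 0.0611 CPM. The sum of the 17 genes was 55.7, 70.5, 47.3 and 46.2 CPM in the small and 155, 59.3, 55.6 and 59.8 CPM in the large tumors, overlapping except for the 800 mm3 tumor 1. Without that tumor 3 members, and without the 3 tumors highest in muscle 4 members, were higher at an unadjusted p under 0.05.

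At 400 mm3, beside the same small tumors, S100a9 held 17.7, 19.97, 32.2 and 2.36 CPM. In Colon 26 it held 1.36, 1.66, 2.08 and 2.39 CPM at 100 mm3 and 1.66, 2.88, 1.35 and 1.88 CPM at 800 mm3, a log2 fold change of 0.05 (SE 0.27). The difference between the models was 3.78 (95% interval 1.94 to 5.63) but did not pass the test over all genes (edgeR adjusted p = 0.112). Of 12 neutrophil genes tested for this difference, 6 were more positive in CT-26 and 1 more negative at an unadjusted p under 0.05, against 6.76% and 5.75% of all genes. Here too a member can pass the filter through its counts in the large CT-26 tumors alone. The count of 6 therefore does not describe the list as a whole. Within Colon 26, 1 of 10 tested neutrophil genes was higher and 4 were lower at an unadjusted p under 0.05, with a median of -0.31. The background there was 9.87% higher and 10.8% lower.

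The interleukin-1 genes were also higher at an unadjusted p under 0.05 among 9 tested cytokines linked to wasting of the host, where 5.58% of all genes were higher. Il1b held 9.74, 12.2, 24.1 and 12.9 CPM in the small and 48.8, 23.1, 34.1 and 18.7 CPM in the large tumors, overlapping in the 800 mm3 tumors 2 and 4 (log2 1.08, SE 0.35, DESeq2 adjusted p = 0.0794). Il1a gave 1.19 (SE 0.34). Il6 gave 0.37 (SE 0.38), and Inhba, which encodes a subunit of activin A, gave 0.10 (SE 0.13).

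The 21 macrophage and monocyte genes tested gave 1 higher and 4 lower at an unadjusted p under 0.05, against 5.58% and 4.94% of all genes. Spp1, which encodes osteopontin and is expressed by both the cultured CT-26 cells and macrophages, held 3983, 3928, 5183 and 3464 CPM in the small and 4633, 7084, 7717 and 7831 CPM in the large tumors. Only the 800 mm3 tumor 1 lay within the range of the small tumors. The log2 fold change was 0.72 (SE 0.18, edgeR adjusted p = 0.418, DESeq2 adjusted p = 0.0226), under the fold threshold. The cultures held 3390.4, 3597 and 3420.1 CPM. C1qa, a chain of complement C1q made by macrophages, held 342, 472, 311 and 341 CPM and 303, 272, 275 and 226 CPM without overlap (log2 -0.45, SE 0.14), and C1qc gave -0.33 (SE 0.15). Csf1r, the receptor that macrophages depend on, gave -0.18 (95% interval -0.60 to 0.24). The count of lower macrophage genes was 7 without the 100 mm3 tumor 3, 2 without the 100 mm3 tumor 2 or the 800 mm3 tumor 4, and 1 without the 800 mm3 tumor 3. Among 16 complement genes 0 were higher and 4 lower, beside the same background. The lower count of complement genes ran from 2 to 7 as tumors were left out in turn. Without the 3 tumors highest in muscle no macrophage gene was lower at an unadjusted p under 0.05.

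No T cell gene of 15 differed at an unadjusted p under 0.05, and their median log2 fold change was -0.47. Cd8a, the co-receptor of cytotoxic T cells, held 5.33, 22.8, 2.79 and 1.16 CPM in the small and 8.35, 11.2, 7.77 and 3.12 CPM in the large tumors (log2 -0.08, SE 0.77). Lck, a kinase of the T cell receptor, gave -0.55 (SE 0.40). The sum of the 15 genes was 60.2, 139, 31.9 and 29.5 CPM and 55.4, 66.1, 52.4 and 23.2 CPM, with the 100 mm3 tumor 2 the highest here too. Of 17 cytotoxic and NK cell genes 0 were higher and 1, Ifng, was lower, but 5 were higher without the 100 mm3 tumor 2. Within that list the fold changes of the granzymes differed in direction, and none had an unadjusted p under 0.05. Gzmd held 31.3, 76.0, 2.94 and 1.40 CPM and 161, 87.3, 103 and 43.8 CPM (log2 1.82, SE 0.97, edgeR adjusted p = 0.515), and Gzmf gave 2.04 (SE 1.05), while Gzmb gave -0.44 (SE 0.66) and Gzma -0.62 (SE 0.52). Gzmd to Gzmf lie close together and are near-identical in sequence, so the division of reads among them is uncertain. In Colon 26 Gzmd rose by 2.27 on the log2 scale (SE 0.51, edgeR adjusted p = 0.051).

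The remaining immune lists held at most 3 members each with an unadjusted p under 0.05, where 5.58% of all genes were higher and 4.94% lower. Of 12 genes of regulatory T cells and checkpoint receptors 1, Tnfrsf4, was lower, with Tnfrsf9 at 0.63 (SE 0.40) and Havcr2 at -0.19 (SE 0.36). Of 13 dendritic cell genes 0 were higher and 3 lower, Ccr7, Ccl22 and Fscn1. Fscn1, an actin bundler that the CT-26 cultures held at 200.4 CPM, gave -0.38 (SE 0.14), while Wdfy4 gave 0.03 (SE 0.27). Of 8 mast cell genes 0 differed, and the tryptases Tpsab1 and Tpsb2, which are close in sequence, gave -0.29 (SE 0.45) and -0.34 (SE 0.41). In Colon 26, 4 of 6 tested mast cell genes fell by the test, against 1.16% of all genes. B and plasma cell genes had 4 members tested with 0 differing, with Ighm at -0.22 (SE 0.40) and Cd79b at -0.25 (SE 0.23). No eosinophil gene of 6 had enough counts to be tested, and Siglecf and Ccr3 were at most 0.195 and 0.298 CPM in all 8 tumors.

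Most matrix genes had a lower mean in the large tumors. Of 28 collagen and matrix genes, 22 had a negative and 6 a positive log2 fold change (median -0.21). At an unadjusted p under 0.05, 3 were higher and 5 lower, against 5.58% and 4.94% of all genes. The count of lower members was 10 without the 800 mm3 tumor 1, and 2 without any of the 100 mm3 tumors 3 and 4 and the 800 mm3 tumors 2, 3 and 4. Fn1, which encodes fibronectin, held 1583, 2321, 3144 and 2296 CPM in the small and 2440.4, 4026, 4588 and 4207 CPM in the large tumors (log2 0.71, SE 0.23, edgeR adjusted p = 0.418). Thbs2, an inhibitor of vessel growth, held 200.5, 296, 185 and 207 CPM and 282, 346, 385 and 449 CPM (log2 0.72, SE 0.18, DESeq2 adjusted p = 0.0213). Both genes overlapped between the sizes through a single tumor. The lower members Col3a1, Col5a1, Fbn1, Bgn and Lox belong to fibrillar collagen and elastic fibers, and Col3a1 held 614, 699, 939 and 1198 CPM and 719, 599, 463 and 589.8 CPM (log2 -0.54, SE 0.21). Col1a1 gave -0.56 (SE 0.27) and Col1a2 -0.22 (SE 0.11). Of 13 fibroblast genes 0 were higher and 2 lower, and Mfap5, a microfibril protein, did not overlap, at 14.5, 10.2, 14.5 and 18.2 CPM against 9.76, 8.63, 5.78 and 7.24 CPM (log2 -0.87, SE 0.21, DESeq2 adjusted p = 0.0169).

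Among 20 proteases and inhibitors 2 were higher, Mmp8 and Timp1, and 4 lower, among them Mmp3, Mmp19 and Timp3. The background was 5.58% higher and 4.94% lower. Timp3, a matrix-bound inhibitor, held 49.1, 52.5, 54.0 and 36.8 CPM in the small and 30.6, 29.1, 35.3 and 30.8 CPM in the large tumors without overlap (log2 -0.61, SE 0.12, DESeq2 adjusted p = 0.00654). Timp1 gave 0.36 (SE 0.15) and Timp2 0.05 (SE 0.12). Of 14 immediate early genes 3 were lower at an unadjusted p under 0.05, Fosb, Dusp1 and Zfp36, while Fosl1 gave 0.01 (SE 0.14) and Egr1 0.25 (SE 0.27). Fosb was at 21.8, 10.1, 14.9 and 256 CPM in the small tumors, where tumor 4 stood apart, and without that tumor its log2 fold change was -0.67 in place of -2.94.

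No endothelial gene of 14 differed at an unadjusted p under 0.05, though 3 were higher without the 100 mm3 tumor 3. Cdh5, the cadherin of vessels, held 14.5, 20.4, 70.7 and 52.3 CPM in the small and 51.7, 48.3, 48.0 and 59.5 CPM in the large tumors, and Pecam1 held 24.4, 35.1, 71.9 and 54.9 CPM and 67.4, 55.8, 59.1 and 58.9 CPM. The small tumors 1 and 2 were the lowest of the 8 in both genes and the small tumor 3 the highest, so the spread among small tumors was wider than the difference between the sizes. Of 11 genes of pericytes and smooth muscle 0 differed, with Pdgfrb at -0.10 (SE 0.17) and Mcam at 0.33 (SE 0.39). Of 17 angiogenic factors 2 were higher, Thbs2 and Esm1 (log2 0.43, SE 0.17), and 3 lower, Vegfd, Angpt1 and Fgf2, against 5.58% and 4.94% of all genes. Vegfa gave 0.13 (SE 0.18). The 3 tested lymphatic genes gave 0, with Lyve1 at -0.54 (SE 0.77) and Pdpn at -0.12 (SE 0.09), and so did 5 red cell genes, with the globins Hba-a2 at 0.05 (SE 0.63) and Hbb-bs at 0.23 (SE 0.64). Of 8 adipocyte genes 1, Plin4, was higher, with Fabp4 at 0.32 (SE 0.33) and Lipe at -0.18 (SE 0.13). Of 3 nerve genes 1, Prx, was higher (log2 0.26, SE 0.10), and Mbp gave -0.25 (SE 0.20).

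Genes of hypoxia and glycolysis did not separate the sizes. Of 32 members 1, Egln3, was higher (4 without the 100 mm3 tumor 1) and 0 lower, with a median of 0.01. Ldha, lactate dehydrogenase, gave 0.00 (95% interval -0.51 to 0.51) and Pkm, pyruvate kinase, 0.09 (-0.32 to 0.50). The sum of the 32 genes was 21058, 16308, 12429 and 10273 CPM in the small tumors, 25803, 24731, 31191 and 13405 CPM at 400 mm3 and 16918, 16833, 16688 and 12584 CPM in the large tumors. The small tumors alone spanned more than the large tumors. In the comparison of 400 with 100 mm3, which uses the same small tumors, 14 of the 32 were higher at an unadjusted p under 0.05 against a background of 10.9%.

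Genes of the cell cycle lay near the background too. Of 32 members 1 was higher (4 without the 100 mm3 tumor 1) and 0 lower, with a median of 0.01 and values from -0.13 to 0.23. The higher member was Mki67, the proliferation marker, at 527, 546, 467 and 439 CPM in the small and 591, 572, 585 and 578 CPM in the large tumors without overlap (log2 0.23, SE 0.08, edgeR adjusted p = 0.438). Top2a gave -0.12 (SE 0.11). In Colon 26, 19 of the 32 were lower at an unadjusted p under 0.05, against 10.8% of all genes, with a median of -0.14. The change was more positive in CT-26 for 11 of 32 at an unadjusted p under 0.05, against 6.76% of all genes, and 0 of them passed after adjustment. Of 22 genes of amino-acid and ER stress 1 was higher and 2 lower, of 19 cholesterol genes 0 differed, and of 12 tested Wnt genes 1, Wnt5a, was higher. Hspa5 and Phgdh of the first list gave 0.17 (SE 0.17) and -0.01 (SE 0.12), Srebf2 of the second 0.01 (SE 0.10), and Wnt10a and Dkk2 of the third -0.19 (SE 0.10) and 0.07 (SE 0.31).

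Several genes outside the lists were called by DESeq2 and did not overlap between the sizes, and they were named after their values were seen. Sncg, gamma-synuclein, held 5.16, 1.92, 5.04 and 4.05 CPM in the small and 7.71, 16.9, 28.7 and 15.5 CPM in the large tumors (log2 2.09, SE 0.41, DESeq2 adjusted p = 6.72e-05). Avil, an actin-binding protein, held 4.29, 9.65, 9.59 and 4.09 CPM and 14.0, 15.4, 40.8 and 54.3 CPM (log2 2.17, SE 0.50, DESeq2 adjusted p = 0.0269). It stood at 214, 224 and 216 CPM in the cultures, above all tumors. Nqo1, a quinone reductase, held 2.27, 1.36, 1.11 and 1.57 CPM and 2.27, 2.72, 7.67 and 8.98 CPM, where the highest small and the lowest large tumor were nearly equal (log2 1.78, SE 0.47, DESeq2 adjusted p = 0.0186). Of the 39 genes that DESeq2 called, 12 had a mean under 2 CPM over the 8 tumors.

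Skeletal muscle was present in some tumors of both sizes. The sum of 20 muscle genes was 4.83, 448, 68.5 and 934 CPM in the 100 mm3 tumors 1 to 4 and 81.3, 21.3, 434 and 36.9 CPM in the 800 mm3 tumors. The cultures, which hold no muscle, gave 5.87 to 6.49 CPM, so that the 100 mm3 tumor 1 was at the level of culture and the other 7 tumors above it. All 20 genes had a negative log2 fold change, with a median of -1.29, and 0 of 20 reached an unadjusted p under 0.05. That count was 7 without the 800 mm3 tumor 3, 2 without the 100 mm3 tumor 1 and 1 without the 100 mm3 tumor 3. Acta1, skeletal actin, held 0.330, 73.6, 9.28 and 124 CPM and 14.3, 5.13, 79.1 and 8.34 CPM (log2 -0.96, SE 1.23). Myh4, the myosin of fast fibers, held 0.0413, 68.0, 9.13 and 177 CPM and 9.84, 0.344, 29.9 and 0.336 CPM (log2 -2.66, SE 1.56). In Colon 26 the sum fell from 357, 2174, 223 and 444 CPM to 6.33, 6.86, 6.27 and 6.17 CPM. All 20 genes fell by the test there, against 1.16% of all genes, by between 4.19 and 12.41 on the log2 scale.

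Keratinocyte genes of the skin stood above the culture level in a single large tumor. The sum of 16 keratinocyte genes was 4.77 to 6.04 CPM in the small tumors and 5.85, 4.38, 5.28 and 88.3 CPM in the large tumors, beside 7.19 to 8.78 CPM in culture. In the 800 mm3 tumor 4 the basal keratins Krt14 and Krt5 were at 49.4 and 18.5 CPM, and Krt1 and Krtdap of the upper layers at 5.38 and 3.45 CPM, while Krt2 and Krt77 were at 0 CPM. Krt14 was at most 0.258 CPM in the other 7 tumors. Only 3 of the 16 genes had enough counts across tumors to be tested, and 0 differed, with Krt10 at 0.19 (SE 0.24). Hair follicle genes were too low for any of 9 to be tested, with the sum at 0.165, 0.455, 0.153 and 0.136 CPM in the small and 0.0745, 0.459, 4.88 and 0.275 CPM in the large tumors.

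**Figure D4:**
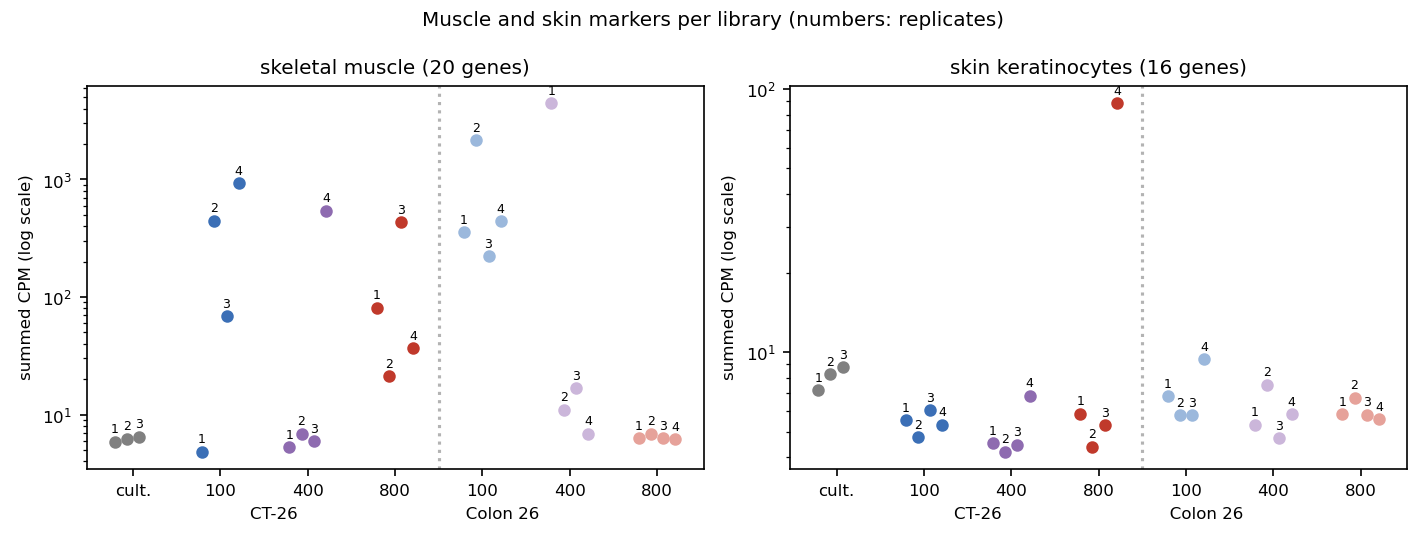
Summed CPM (log axis) of 20 skeletal muscle genes and 16 skin keratinocyte genes in each library of the CT-26 cultures and of CT-26 and Colon 26 tumors of 100, 400 and 800 mm3, with tumor numbers. Muscle is high in the small CT-26 tumors 2 and 4 and the large tumor 3. Among CT-26 tumors of 100 and 800 mm3 the keratinocyte genes are high only in the large tumor 4.

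Removing the tumors with muscle changed the counts. Without the 100 mm3 tumor 4, the highest in muscle, edgeR called 2 genes, Ccn2 and Tsc22d3, both lower. Without the 3 tumors highest in muscle it called 0, and 433 genes had an unadjusted p under 0.05. In that setting the members with an unadjusted p under 0.05 went from 20 to 3 lower interferon-stimulated genes, from 9 to 4 lower chemokines, from 7 to 4 higher neutrophil genes, from 4 to 0 lower macrophage genes and from 7 to 4 lower glucocorticoid-responsive genes, with 5 tumors left in the fit. The log2 fold change of Ccn2 was -1.63 there against -2.17 with all tumors. The part of muscle and skin in these differences was not tested.

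The Colon 26 tumors of the same sizes gave 205 calls among 15404 genes tested (1.33%), 26 higher (0.169%) and 179 lower (1.16%). The median standard error was 0.09 there against 0.13 in CT-26. The difference of the change between the models, tested over both sets of tumors, was called for 5 of 16238 genes (0.0308%), 3 more positive (0.0185%) and 2 more negative (0.0123%) in CT-26, and 2031 genes (12.5%) had an unadjusted p under 0.05. The 2 protein-coding genes among the 5 belong to striated muscle. Hspb7, a small heat shock protein, held 5.41, 6.17, 2.56 and 6.95 CPM in the small and 6.97, 5.53, 13.7 and 7.33 CPM in the large CT-26 tumors, but fell from 4.06, 7.90, 5.38 and 4.79 CPM to 0.352, 0.624, 0.459 and 0.333 CPM in Colon 26 (interaction 4.31, SE 0.50, edgeR adjusted p = 0.00451). Trim72, a membrane repair protein, held 3.80, 7.05, 2.33 and 4.05 CPM and 4.58, 3.18, 4.52 and 3.42 CPM in CT-26 and 1.14, 5.91, 1.41 and 1.61 CPM and 0.0959, 0.0891, 0.0328 and 0.111 CPM in Colon 26 (interaction 4.77, SE 0.80, edgeR adjusted p = 0.0881). Unlike the muscle sum, both genes were about as high in the small CT-26 tumor 1, which held no muscle above culture, as in the other small tumors.

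**Figure D5:**
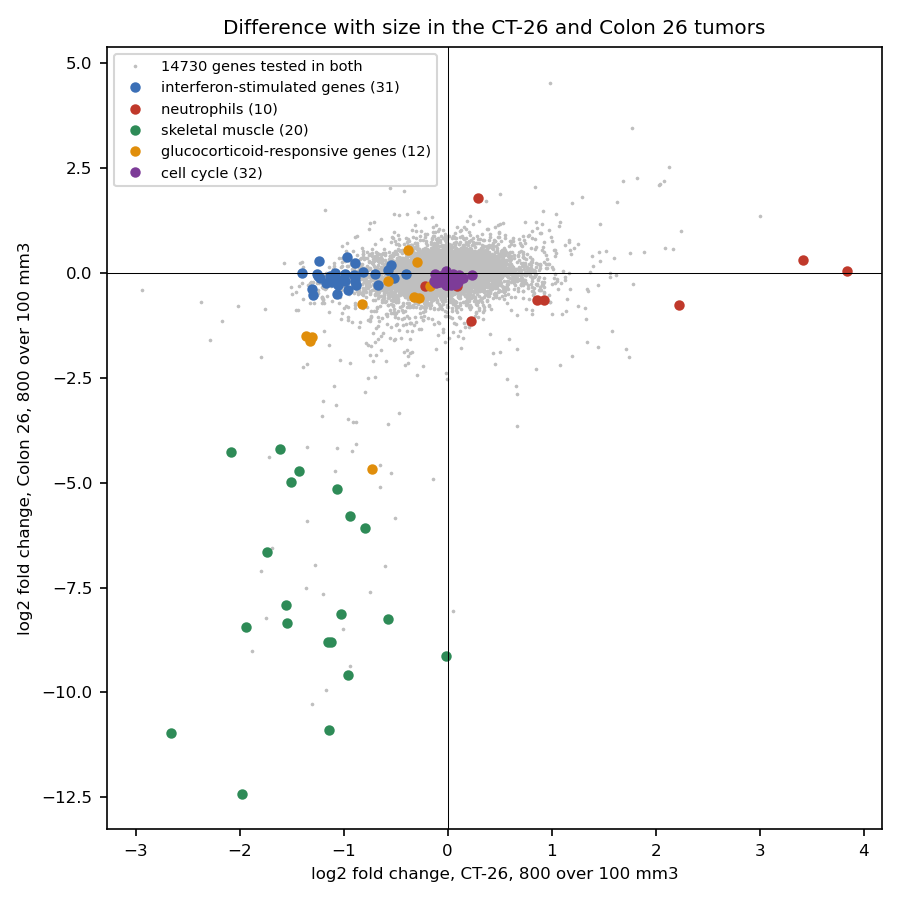
Log2 fold change of 800 over 100 mm3 in CT-26 (horizontal) and Colon 26 (vertical) for 14730 genes tested in both (grey), with members of 5 lists in color. Muscle genes lie below 0 in both models and far lower in Colon 26, interferon-stimulated genes lie left of 0 at a vertical position near 0, and cell cycle genes lie near the center.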

How the data were processed

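RNA of CT-26 tumors, Colon 26 tumors and cultures was sequenced from poly-A selected libraries. The authors deposited estimated counts per gene from Array Studio against Ensembl genes, of which 22.98% are not whole numbers, and these were rounded before testing. They also deposited FPKM values, which were used only in alternatives, by limma on log2(FPKM + 0.1) and log2(FPKM + 1). The aligner and genome build are not given in the sources used here. The submitters' processing notes name DESeq2 1.24.0.

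The 4 tumors of 800 mm3 were compared with the 4 of 100 mm3 by edgeR 4.0.16 (limma 3.58.1, R 4.3.3) with a quasi-likelihood fit of these 8 libraries only, the edgeR expression filter and TMM scaling. A gene was called where its Benjamini-Hochberg adjusted p did not exceed 0.1 and its log2 fold change was 1 or more in size. All p-values are two-sided. Colon 26 was fitted likewise, and the interaction was fitted over both sets. DESeq2 1.42.0 was the alternative. CPM were computed from the deposited counts with TMM scaling. Tumors of the same size differed by far more than counting error (a chi-square per degree of freedom of at least 16.5 between any pair), so the spread between tumors and not the depth sets the precision. The median half-width of the 95% interval was 0.28 on the log2 scale.

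Genes were to be named from the called genes and, in lists with none called, as the 2 members of highest mean CPM. Others are said to be chosen after their values were seen, and some members that this rule names are not reported here. The members and lists were chosen with earlier results of these data known. The alternatives were DESeq2, other filters, scalings and thresholds, the exact volume in place of the size group, each tumor left out, tumors with muscle or skin left out and a fit of 24 tumors. Scripts were tested on simulated data.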

Additional observations from a re-analysis of the deposited data

Results flagged for a closer look

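Of 74 groups of 4 tumors checked for a tumor far from the other 3 by Dixon's gap test, 6 were past the limit, and chance flags about 1 in 20 groups. The 800 mm3 tumor 1 stood apart in the summed neutrophil genes, at 155 CPM. The 800 mm3 tumor 3 stood apart in skeletal muscle, at 434 CPM, and in hair follicle genes, at 4.88 CPM. The 800 mm3 tumor 4 stood apart in skin keratinocyte genes, at 88.3 CPM, and in hypoxia genes, at 12584 CPM, where it was the lowest. The 100 mm3 tumor 2 stood apart in hair follicle genes, at 0.455 CPM.

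The change with size differed between CT-26 and Colon 26 by the edgeR test of the interaction for 5 genes. On the log2 scale, CT-26 minus Colon 26, the differences were 4.31 for Hspb7, 4.77 for Trim72, 2.49 for Gm39822, -1.06 for Gm32618 and -2.83 for Gm9042.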

How the results depend on the processing

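No paired analysis was possible because the labels carry no replicate numbers. For 800 over 100 mm3 in CT-26, edgeR called 0 genes under the other filters, scalings and thresholds, with the exact volume as covariate, in a fit of 12 CT-26 tumors, without the tumor high in skin and without the 3 tumors highest in muscle, and limma called 0 on FPKM. DESeq2 called 39 (22 higher, 17 lower), the fit of 24 tumors called 20 (10 higher, 10 lower), and leaving out 1 tumor in turn gave 0 to 2 calls, with the 2, both lower, without the 100 mm3 tumor 4, which is also the result without tumors high in muscle. For the interaction, with 5 calls (3 more positive, 2 more negative), DESeq2 called 114 (90 and 24), the fit of 24 tumors 8 with 4 more negative, a minimum of 10 counts 0, library size scaling 3 with 0 more negative, no filter 3 with 0 more negative, an adjusted p of at most 0.05 2 with 0 more negative, and no minimum fold 13 (7 and 6). Leaving out 1 tumor in turn gave 2 to 128 interaction calls, with 2 to 71 more positive and 0 to 57 more negative. The highest were 128 without the 800 mm3 CT-26 tumor 1, 51 without the 100 mm3 CT-26 tumor 1 and 24 without the 100 mm3 CT-26 tumor 2. The cause was not tested. Of 1553 values of 104 named genes under alternatives, 87 in 27 genes changed sign, none of them called. The setting without the 3 tumors highest in muscle was chosen after seeing the data. With 4 tumors a group, differences under the interval widths given cannot be resolved.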
